A study of Mus musculus with 6 samples.

Results

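The inner kinetochore is a network of proteins, named CENP after centromere protein, that sits on centromeric chromatin and links it to the microtubule-binding outer kinetochore during cell division. Described here are 10 of its genes, Cenpc1, Cenph, Cenpi, Cenpk, Cenpl, Cenpn, Cenpp, Cenpq, Cenpu and Cenpw, of 19938 genes measured in the mouse liver series. They were chosen by name, with earlier results of these data known, and each was read from the single probe set whose annotation gives its symbol and no other. All 10 were found.

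The samples were liver cells of CyclinB1-GFP transgenic mice aged 3.5 weeks, so every cell, GFP-negative cells included, came from a mouse that carries the reporter. After dissociation of the livers of 3 mice, fluorescence-activated cell sorting gave replicating (GFP-positive) and quiescent (GFP-negative) cells, with 3 arrays a group labelled as biological replicates. The labels do not give the promoter that drives the reporter or the genetic background of the mice. By these names the sort sets cells that replicate against cells at rest within the young liver. Whether every GFP-negative cell was at rest was not tested.

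In vertebrate cells the network is built on nucleosomes that hold CENP-A, the histone H3 variant of centromeres. CENP-C and CENP-N bind these nucleosomes, the CENP-H/I/K/M and CENP-L/N groups form the core around them, the CENP-O/P/Q/U/R group adds to it, and CENP-T/W/S/X, a group of histone-fold proteins, reaches out to the NDC80 complex of the outer kinetochore. The proteins stay at centromeres for much of the cell cycle, and many of their genes are transcribed mainly in dividing cells. Most hepatocytes of the adult liver are quiescent, while the liver of a weaned young mouse is still growing.

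The promoters of the 10 genes are shown first. Promoters of cell division genes often carry a cell cycle homology region (CHR, letters TTTGAA), the CCAAT box bound by NF-Y, or a site for E2F factors (searched as TTCCCGC, with TTGGCGC as another form and TTCGCGC as a last form). The 250 bases before each RefSeq start in the GRCm38.p6 build were searched for these letters on both strands. A promoter was found for all 10 genes, with 3 starts for Cenpk. Shown are the promoters of the genes with the largest and the smallest difference (Cenph and Cenpc1) and of the first 2 genes, in the order of the list, that hold both CHR and CCAAT letters (Cenpl and Cenpn), each 5′ to 3′ on the strand of its gene, with every match in capitals (a match on the opposite strand appears as its reverse complement).
Cenph: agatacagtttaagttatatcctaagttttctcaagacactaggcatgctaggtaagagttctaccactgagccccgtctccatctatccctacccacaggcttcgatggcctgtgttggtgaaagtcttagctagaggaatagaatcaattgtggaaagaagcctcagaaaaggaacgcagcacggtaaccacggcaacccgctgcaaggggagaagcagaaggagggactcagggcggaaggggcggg
Cenpc1: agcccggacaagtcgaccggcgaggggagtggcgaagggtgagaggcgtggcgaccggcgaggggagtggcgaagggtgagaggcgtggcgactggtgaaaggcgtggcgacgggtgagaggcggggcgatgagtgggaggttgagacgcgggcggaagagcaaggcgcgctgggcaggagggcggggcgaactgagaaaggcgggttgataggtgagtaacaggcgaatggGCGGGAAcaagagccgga
Cenpl: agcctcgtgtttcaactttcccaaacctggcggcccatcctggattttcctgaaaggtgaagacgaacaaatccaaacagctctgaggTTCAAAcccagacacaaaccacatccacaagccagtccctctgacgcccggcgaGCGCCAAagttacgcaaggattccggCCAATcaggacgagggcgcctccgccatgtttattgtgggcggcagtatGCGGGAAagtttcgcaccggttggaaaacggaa
Cenpn: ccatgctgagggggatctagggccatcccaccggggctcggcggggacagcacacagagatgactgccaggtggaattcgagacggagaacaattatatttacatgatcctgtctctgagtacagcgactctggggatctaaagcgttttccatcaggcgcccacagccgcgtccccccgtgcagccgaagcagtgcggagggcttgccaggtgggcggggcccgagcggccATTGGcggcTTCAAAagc

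The Cenph window (chr13:100775900-100776149, minus strand) held none of the letters searched, and neither did those of Cenpi and Cenpp. The Cenpc1 window (chr5:86065584-86065833, minus strand) held one E2F match, TTCCCGC on the opposite strand, which begins 18 bases before the start. The Cenpl window (chr1:161070517-161070766, plus strand) held a CCAAT box that begins 82 bases before the start and, on the opposite strand, a CHR match at 162 bases and 2 E2F matches at 108 and 33 bases. In the Cenpn window (chr8:116921490-116921739, plus strand) a CCAAT box on the opposite strand begins 18 bases and a CHR match on the opposite strand 9 bases before the start. Cenpw was the third gene with both, CCAAT at 29 bases and CHR, on the opposite strand, at 25 bases before its start, where the 2 matches overlap. In all, CHR letters were found in 3 of the 10 genes, against 18.3% of all 27025 genes with a promoter in the table. CCAAT was found in 6 of the 10, against 37.5% of all genes, and an E2F match in 3 of the 10 (Cenpc1, Cenpk and Cenpl), against 7.68%. A match is a run of letters and not a measured site, and a window without one says nothing of the factor.

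All values below are log2 of the deposited intensities, with SD over n = 3 arrays a group. Differences are GFP-positive minus GFP-negative with their SE, tested by limma, and p-values were adjusted over the whole set of 19938 genes by the Benjamini-Hochberg method (threshold 0.05). Array medians over all probe sets lay between 4.60 and 4.74. No detection calls were used. A gene whose GFP-negative mean was under these medians therefore has a fold of at least the number given, taken with each lower value set to the median of its own array. The number of arrays limits the precision. In replicate 2 of both groups Xist was high (9.80 in the GFP-positive and 9.03 in the GFP-negative array, against 3.73 to 4.04 in the other arrays) and the Y-linked gene Eif2s3y low (2.24 in the GFP-positive and 1.98 in the GFP-negative array, against 6.78 to 7.31), so results are also given without these 2 arrays where a call changes.

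All 10 genes rose in GFP-positive cells. Their measured differences, with no floor, ran from 1.59 for Cenpc1 to 3.67 for Cenph with a median of 2.03, while the median of all genes was -0.03. Over all genes 310 were higher at the threshold, which is 1.55%, and 0.115% were lower. The 10 were listed with such results known, and of 6 further genes of the network described below 1 passed, so nothing is read from 10 of 10 beside that share. In each of the 10 genes the lowest GFP-positive array lay above the highest GFP-negative array, by 0.95 (Cenpl) to 2.84 (Cenph), as groups did in this direction in 6.82% of all genes. The sort itself used a reporter named after cyclin B1, so a rise of genes of dividing cells is built into the comparison. In sorted bulk cells a larger share of expressing cells and more RNA per cell cannot be told apart.

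**Figure D1:**
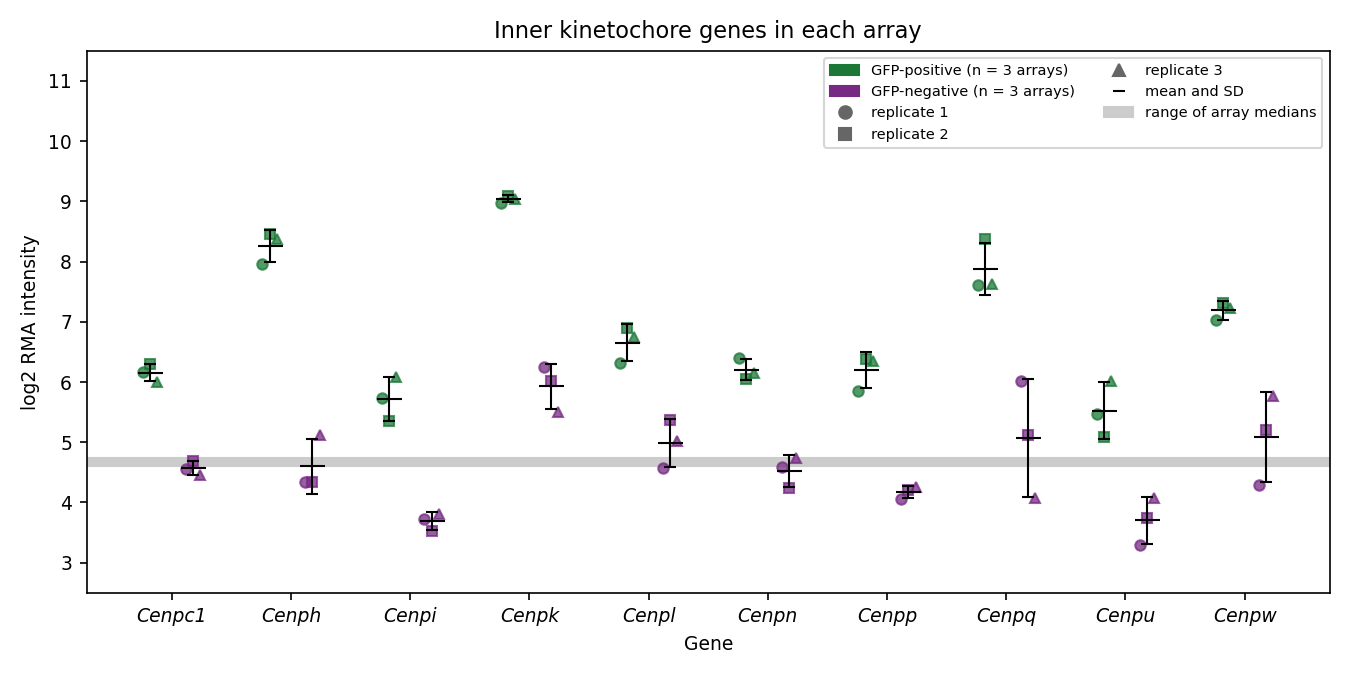
Log2 RMA intensity of the 10 inner kinetochore genes in each of the 3 GFP-positive (left, green) and 3 GFP-negative (right, purple) arrays, with mean and SD and the range of the array medians in grey. In every gene all GFP-positive arrays lie above all GFP-negative arrays, and the GFP-negative arrays of Cenpq and Cenpw are the most spread.

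Cenpc1 encodes CENP-C, the scaffold that binds the CENP-A nucleosome at one end of the network and the outer kinetochore at the other. It stood at 6.168, 6.296 and 6.005 in GFP-positive cells, against 4.55, 4.69 and 4.46 in GFP-negative cells. The arrays of each group lay within 0.29 of each other and the groups were well apart. Its difference of 1.59 ± 0.14 (adjusted p = 0.00021) was the smallest measured difference of the 10. With its GFP-negative mean under the array medians it is a rise of at least 2.76-fold, and the bounds of Cenpi and Cenpu were lower than that.

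Cenph and Cenpk, whose products pair with each other in the CENP-H/I/K/M group, had the largest measured differences. Cenph stood at 7.96, 8.46 and 8.37 in GFP-positive cells, against 4.33, 4.34 and 5.12 in GFP-negative cells. GFP-negative replicate 3 was the highest of its group and still far below the GFP-positive arrays. The difference was 3.67 ± 0.23 (95% interval 3.14 to 4.19, adjusted p = 1.7e-05), at least 11.1-fold. Cenpk stood at 8.98, 9.10 and 9.04 in GFP-positive cells, the tightest group of all 10 genes (SD 0.058), against 6.26, 6.01 and 5.51 in GFP-negative cells. It was above the array medians in every GFP-negative array, so its fold of 8.65 is measured and not a bound (difference 3.11 ± 0.19, 95% interval 2.68 to 3.54, adjusted p = 1.4e-05). Cenpi encodes CENP-I, a relative of fission yeast Mis6. It stood at 5.73, 5.36 and 6.08 in GFP-positive cells, against 3.73, 3.53 and 3.82 in GFP-negative cells. All 3 GFP-negative values lay under the array medians, so the difference of 2.03 ± 0.19 (adjusted p = 0.00029) is stated as at least 2.09-fold. None of them lay under its array's 25th percentile, so a floor set there leaves the measured fold of 4.09.

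The 95% intervals of the measured differences separated Cenph from 7 and Cenpk from 6 of the other genes. They did not separate Cenph, Cenpk and Cenpq from one another. Of 45 pairs among the 10 genes 13 had intervals that did not overlap, and all 13 involved Cenph or Cenpk. The difference between genes was not tested.

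Cenpl and Cenpn encode partners that form a pair, in which CENP-N reads the CENP-A nucleosome. Cenpl stood at 6.32, 6.90 and 6.74 in GFP-positive cells, against 4.58, 5.37 and 5.02 in GFP-negative cells. Cenpn stood at 6.40, 6.06 and 6.15 in GFP-positive cells, against 4.58, 4.24 and 4.74 in GFP-negative cells. Both pairs of groups were clear of each other, with a gap of 0.95 for Cenpl and 1.31 for Cenpn. The differences were close in size, 1.67 ± 0.22 for Cenpl (95% interval 1.16 to 2.17, adjusted p = 0.0035, at least 3.13-fold with GFP-negative replicate 1 raised to its array's median) and 1.68 ± 0.17 for Cenpn (95% interval 1.30 to 2.07, adjusted p = 0.00049, at least 2.91-fold).

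Cenpp, Cenpq and Cenpu encode subunits of the CENP-O/P/Q/U/R group, in which CENP-U binds the kinase Plk1. Cenpp stood at 5.86, 6.39 and 6.35 in GFP-positive cells, against 4.07, 4.20 and 4.25 in GFP-negative cells. The GFP-negative arrays were the tightest of the 10 genes (SD 0.096), all under the array medians, and the difference was 2.03 ± 0.17 (adjusted p = 0.00014), at least 2.90-fold. Cenpq stood at 7.61, 8.38 and 7.64 in GFP-positive cells, against 6.01, 5.13 and 4.07 in GFP-negative cells. These GFP-negative arrays spanned 1.94, the widest range of the 10 genes, and the difference carried the largest error, 2.80 ± 0.42 (95% interval 1.86 to 3.75, adjusted p = 0.0068). GFP-negative replicate 3 lay under its array's median, and the measured fold of 6.98 becomes at least 5.98 with that value raised to the median. Cenpu, once named Mlf1ip, stood at 5.47, 5.09 and 6.02 in GFP-positive cells, against 3.30, 3.74 and 4.07 in GFP-negative cells. All 3 GFP-negative values were under the array medians, and the difference was 1.82 ± 0.26 (adjusted p = 0.0051), at least 1.82-fold, or at least 3.51-fold with the floor at the 25th percentile.

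Cenpw encodes a small histone-fold protein that pairs with CENP-T. It stood at 7.02, 7.32 and 7.23 in GFP-positive cells, against 4.30, 5.21 and 5.76 in GFP-negative cells. The GFP-positive arrays were close together and the GFP-negative arrays spread over 1.47, and the difference was 2.10 ± 0.31 (adjusted p = 0.0063). GFP-negative replicate 1 lay under its array's median, and the measured fold of 4.28 becomes at least 3.96 with that value raised to the median. Without replicate 2 of both groups the differences of Cenpq (2.58, adjusted p = 0.076) and Cenpw (2.09, adjusted p = 0.068) no longer passed with limma, while those of the other 8 genes did. When all 35512 probe sets were tested alone, unnamed ones included, Cenpq (adjusted p = 0.075), Cenpw (adjusted p = 0.068) and Cenpu (adjusted p = 0.055) did not pass, with the same differences.

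The spread within groups was not shared by the 10 genes. In GFP-negative cells Cenpq was highest in replicate 1 and lowest in replicate 3, by 0.94 above and 0.999 below its mean, while Cenpw had the opposite order, 0.79 below its mean in replicate 1 and 0.68 above it in replicate 3. Averaged over the 10 genes, an array's deviation from its group mean lay between -0.13 (GFP-positive replicate 1) and 0.08 (GFP-positive replicate 3). GFP-positive replicate 2 was the highest of its group for 7 genes and the lowest for the other 3, Cenpi, Cenpn and Cenpu. GFP-negative replicate 3 was the highest of its group for 6 genes and the lowest for 3. No array was therefore high or low for all 10.

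**Figure D2:**
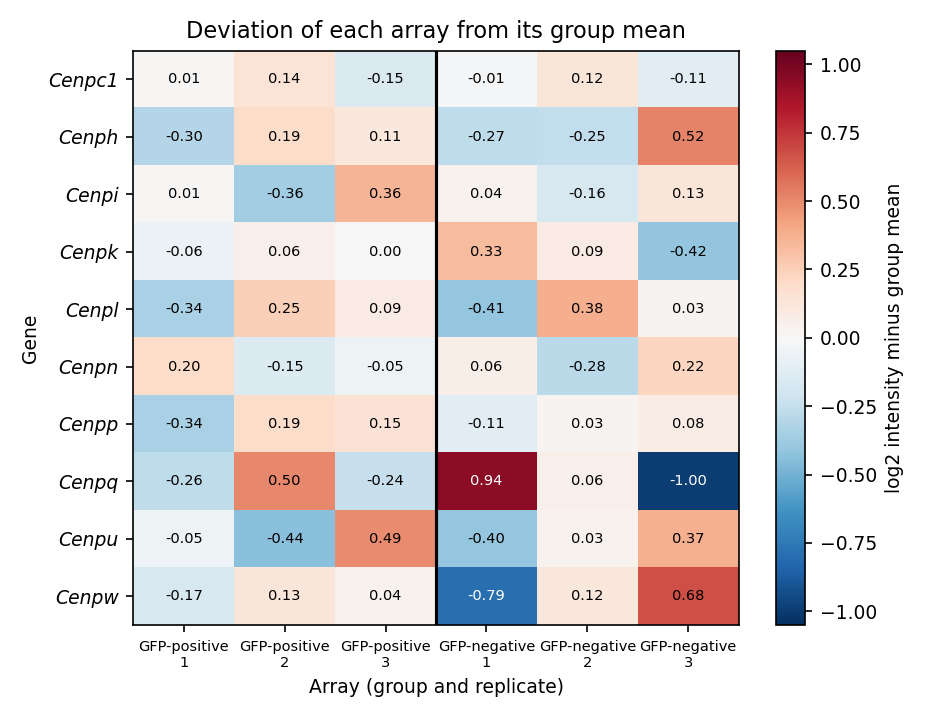
Log2 intensity minus the mean of its group, for the 10 genes (down) in the 3 GFP-positive and the 3 GFP-negative arrays (across). Colours change sign from gene to gene within each array, and the largest deviations are those of Cenpq and Cenpw in GFP-negative replicates 1 and 3.

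Apart from Cenpa, the other inner kinetochore genes had smaller differences than the 10. Besides CENP-A itself, 6 more genes of the network were measured. Of these 6, 1 passed the threshold upward, against 10 of the 10 above and 1.55% of all genes. Their differences ran from 0.18 to 0.95 with a median of 0.69. Counting both sets, 11 of 16 genes passed upward and none downward, beside the same 1.55% of all genes, and the median difference was 1.68. The 10 genes were listed with such results known, so the 16 give the fuller picture of the network. The one of the 6 that passed was Cenps, whose histone-fold product also serves in DNA repair. It stood at 6.53, 6.50 and 6.45 in GFP-positive cells, against 5.66, 5.48 and 5.65 in GFP-negative cells (difference 0.89 ± 0.13, adjusted p = 0.0060, or 0.060 without replicate 2 of both groups).

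Subunits of one group thus had unlike values. In the CENP-H/I/K/M group, Cenpm stood at 6.59, 6.59 and 6.78 in GFP-positive cells, against 5.85, 6.32 and 5.78 in GFP-negative cells. Its difference of 0.67 ± 0.17 (95% interval 0.29 to 1.06) did not pass over all genes (adjusted p = 0.13), and its interval lies below those of Cenph, Cenpi and Cenpk. Cenpm passed with limma without GFP-negative replicate 2 (adjusted p = 0.036). It did not pass with any other 1 array left out (adjusted p = 0.22 to 0.40). Nor did it pass without replicate 2 of both groups (adjusted p = 0.058). Cenpt, the partner of Cenpw, differed by 0.70 ± 0.19 (95% interval 0.26 to 1.13, adjusted p = 0.18), and its interval lies below that of Cenpw, 1.40 to 2.80. Cenpx, the partner of Cenps, stood at 6.36, 6.25 and 6.48 in GFP-positive cells, against 6.10, 6.30 and 6.14 in GFP-negative cells. Its groups overlapped, and its difference of 0.18 ± 0.14 (95% interval -0.13 to 0.49, adjusted p = 0.83) leaves room for a change of up to 0.49. In the CENP-O/P/Q/U/R group, Cenpo differed by 0.49 ± 0.13 (adjusted p = 0.16) and Itgb3bp, which encodes CENP-R, by 0.95 ± 0.23 (adjusted p = 0.096). In these 2 genes, as in Cenpm, Cenps and Cenpt, no GFP-negative array reached a GFP-positive one, as in 6.82% of all genes. An unadjusted limma p below 0.05 was found for 5 of the 6, as for 5.01% of all genes in this direction. The difference in response between subunits was not tested.

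**Figure D3:**
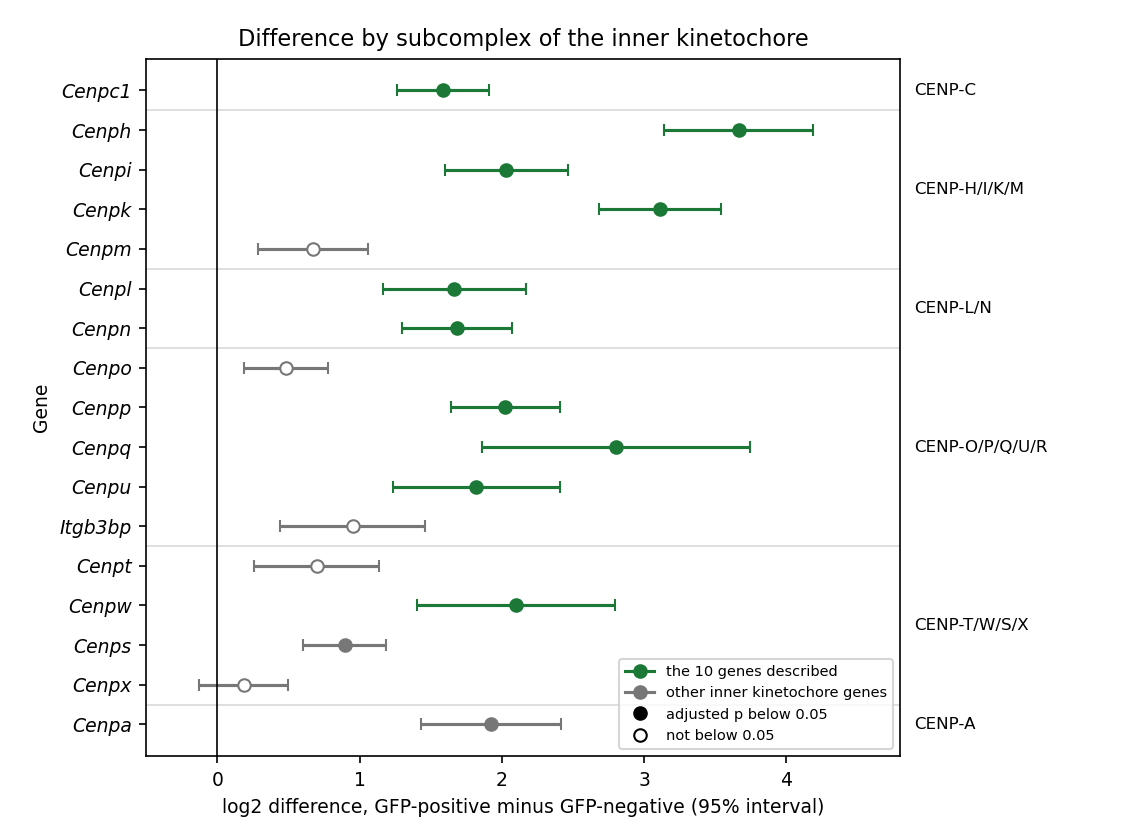
Log2 difference, GFP-positive minus GFP-negative, with its 95% interval from limma, for the 10 genes (green) and 7 other inner kinetochore genes (grey), ordered by group of the network. Filled points passed at an adjusted p below 0.05, and in the CENP-H/I/K/M group Cenpm lies at 0.67 while Cenph lies at 3.67.

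CENP-A, the histone on which the network is built, also rose. Cenpa stood at 8.11, 7.94 and 8.42 in GFP-positive cells, against 5.90, 6.69 and 6.12 in GFP-negative cells, a 3.80-fold difference (1.93 ± 0.22, adjusted p = 0.0010). Of 6 measured genes of the loading of CENP-A and of centromere DNA binding, 2 rose: Oip5, a part of the Mis18 loading complex (1.75 ± 0.30, adjusted p = 0.017), and its partner Mis18a (1.27 ± 0.16, adjusted p = 0.0023). Both Oip5 means lay below the array medians, so no fold is given. Oip5 did not pass without GFP-positive replicate 1 (adjusted p = 0.056) or 3 (adjusted p = 0.081), or without GFP-negative replicate 1 (adjusted p = 0.072) or 2 (adjusted p = 0.067). The median of these 6 was 0.44. Of 10 genes of the outer kinetochore 7 rose and none fell, with a median of 1.91. Over all genes 1.55% were called higher and 0.115% lower, to be set beside these 7 of 10 and the 2 of 6 above. A rise of genes of dividing cells is built into the sort. The median was 2.03 for the 10 inner kinetochore genes and 1.68 for the 16 network genes without Cenpa. All these lists, that of the outer kinetochore included, were chosen with earlier results of these data known. The largest differences of the outer kinetochore were those of Nuf2 (4.45 ± 0.19) and Knl1 (4.39 ± 0.30), and Nsl1, Pmf1 and Zwint did not pass (0.51 to 0.94).

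**Figure D4:**
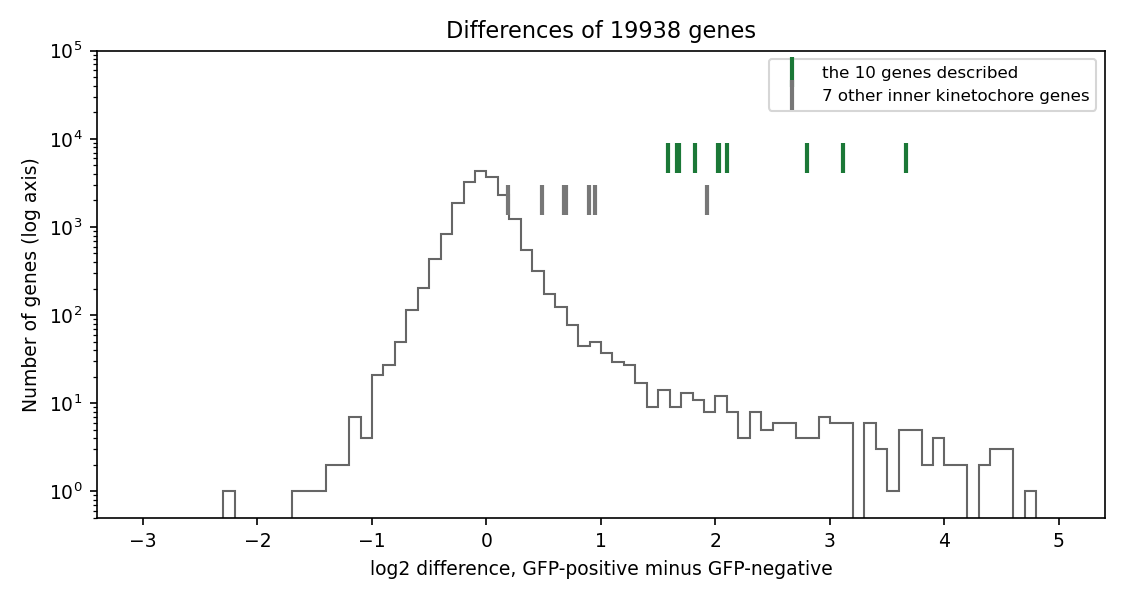
Number of genes by log2 difference, GFP-positive minus GFP-negative, in bins over all 19938 genes (log axis), with the 10 genes as green and the 7 other inner kinetochore genes as grey ticks. The green ticks run from 1.59 to 3.67 in the sparse right tail, and 6 of the 7 grey ticks lie between 0.18 and 0.95.

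The genes with the profile most like the mean profile of the 10, by Euclidean distance of centred log2 values over the 6 arrays, were Knstrn (distance 0.16, difference 2.36), Diaph3 (0.23, difference 2.12), Ercc6l (0.24, difference 2.28), Stmn1 (0.29, difference 2.31) and Kif22 (0.34, difference 2.21). The 10 genes themselves lay at distances of 0.39 (Cenpp) to 1.84 (Cenph) from their own mean profile. By Pearson's r over the same 6 arrays, which ignores the size of the difference, the nearest were Knstrn, Aspm, Cenpf, Kif15 and Prc1. Since 6 arrays in 2 groups define the profile, likeness mostly reflects the difference between the groups.

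The labels were set against marker genes. All 9 measured markers of cycling cells rose in GFP-positive cells, beside 1.55% of all genes, with a median difference of 3.77. Summed intensities of these 9 were 4605 to 5276 in GFP-positive, against 344.3 to 418.6 in GFP-negative arrays. The sort used a reporter named after cyclin B1, so their rise is built into the comparison and does not test the labels. Ccnb1 was listed with them but was not among the genes analysed. None of 10 hepatocyte markers passed (median -0.14), and their summed intensities were 52820 to 54440 in GFP-positive, against 58110 to 60690 in GFP-negative arrays. No marker of another liver cell type passed upward: of 8 Kupffer cell markers Clec4f fell, and none of 8 endothelial, 8 stellate, 5 cholangiocyte, 7 lymphoid and 6 erythroid markers passed. Their summed intensities in GFP-positive against GFP-negative arrays were 151.2 to 167.7 against 176.7 to 223.9 (Kupffer), 265.4 to 275.1 against 289.7 to 380.9 (endothelial) and 260.7 to 306.9 against 356.7 to 417.0 (stellate). They were 110.6 to 120.7 against 111.5 to 124.4 (cholangiocyte), 114.4 to 120.6 against 103.2 to 138.2 (lymphoid) and 302.7 to 418.8 against 413.7 to 487.1 (erythroid). Of the lymphoid markers 6 of 7 lay under the array median on all 6 arrays (Ptprc, Cd3d, Cd79a, Cd79b, Ms4a1 and Nkg7), as did the Kupffer markers Adgre1, Cd5l, Timd4 and Csf1r, the cholangiocyte markers Krt19, Epcam and Cftr, the stellate markers Des and Pdgfrb, the endothelial marker Tek and the erythroid marker Rhag. The part of these marker levels in the results above was not tested.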

How the data were processed

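Total RNA of sorted liver cells was amplified, labelled with biotin and hybridised to Affymetrix arrays, per the labels' protocols. The authors deposited an RMA intensity for every probe set on each array, per the submitters' processing notes; the version of RMA is not given in the sources used here. The values are on a linear scale (1.62 to 15836), so log2 was taken and no further normalization made.

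Of 35512 probe sets, 21789 have 1 gene symbol, 1621 several and 12102 none, and symbols were updated through Entrez identifiers for 21698. Of several probe sets for 1 gene the one with the highest mean was used, which left 19938 genes. Groups were compared with limma 3.58.1 in R 4.3.3 (4 residual and 5.44 prior degrees of freedom), without a low-value filter. The code was tested on simulated data. Further steps used pandas 2.3.3 and numpy 2.4.6 under Python 3.11.15, with matplotlib 3.10.9 for figures.

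The 10 genes and all lists were chosen with earlier results of these data known. Named are all 10, the other inner kinetochore genes, the 2 largest called differences of each further list and the 5 nearest profiles. Some listed symbols were not analysed here. Promoters are RefSeq's, GRCm38.p6. Alternatives were other normalizations, a filter, other summaries of probe sets, variance models, the replicate number as a block, and arrays left out.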

Additional observations from a re-analysis of the deposited data

How the results depend on the processing

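Under 15 alternatives for each of the 10 genes, 145 of 150 values kept their direction and their side of the threshold and none changed direction. The other 5 values were those of Cenpq (2.80), Cenpu (1.82) and Cenpw (2.10) with all probe sets tested alone, and of Cenpq (2.58) and Cenpw (2.09) without both arrays of number 2. These settings test more features or fewer samples, and left 7 and 8 of the 10 genes called. With all probe sets tested alone the SE also rose, for Cenpq from 0.42 to 0.49, for Cenpu from 0.26 to 0.29 and for Cenpw from 0.31 to 0.35. The reason for the lost calls was not tested. Without any 1 array all 10 stayed called; the differences then ran from 1.46 (Cenpl) to 3.93 (Cenph), and the count of higher genes from 244 to 294. The count of lower genes, 23, was 38 with quantile normalization, 13 with median centring, 6 with all probe sets alone, 53 with array weights, 9 without number 2, 3 and 46 at thresholds of 0.01 and 0.1, and 6 to 29 without any 1 array; the cause was not tested. Other inner kinetochore genes called, Cenpa included, were 2 with all arrays and 1 without number 2. CENP-A loading genes called, 2 with all arrays, were 1 after the low-value filter, which kept 13292 genes and left Oip5 out, 1 with all probe sets alone, and 1 to 2 without any 1 array. The floor at the 25th percentile left the measured folds of 4.09 (Cenpi) and 4.07 (Cenpp), as no value of these genes lay under it. For Cenpu it gave a lower bound of 3.51.

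Both groups carry replicate numbers 1 to 3, and both fractions came from 3 mice, but the labels do not tie a number to a mouse. In each group number 2 was the only array with high Xist and low Eif2s3y. If each array holds cells of 1 of the same 3 mice, number 2 was thus the same mouse in both groups. These 2 genes do not tell numbers 1 and 3 apart, and the main test did not use the numbers. Deviations from the group means correlated across genes by 0.20, 0.06 and -0.05 for numbers 1, 2 and 3, and 1 of the 3 GFP-positive arrays correlated best with its own number. With the replicate block all 10 genes were called, and 327 genes were higher and 28 lower. The differences are the same by construction, for example 3.67 for Cenph and 2.80 for Cenpq with the replicate block.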
